A study of Mus musculus with 4 samples.

Results

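The 10 genes described here encode the ligands, receptors, SMAD proteins and known targets of transforming growth factor beta (TGF-beta): Tgfb1, Tgfb2, Tgfb3, Inhba, Ltbp1, Tgfbr1, Tgfbr2, Smad3, Smad7 and Tgfbi. They were taken by symbol from the deposited expression matrix, and all 10 were found among its 24444 genes. The series holds 4 poly(A) RNA sequencing libraries of oesophageal cells grown in culture, from C57BL/6J mice. Of these, 2 were wild type (WT), with no treatment and no CRISPR/Cas9 cassette in the labels. The other 2 were titled HET, read here as heterozygous, and carried the cassette Nfe2l2-E79Q with the treatment given as CRISPR/Cas9 microinjection; they are called E79Q below. Nfe2l2 encodes NRF2, which turns on genes of antioxidant defence and detoxification, and E79Q is a tumour-derived substitution in it. The labels do not state the age of the mice, what drives expression of the allele, or whether the 2 libraries of a genotype came from separate animals or cultures. The p-values therefore measure only the spread between these libraries, which may be technical. The column names of the matrix include the word SV40, which the labels leave unexplained.

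TGF-beta is secreted as a latent complex in which its propeptide is held by a latent TGF-beta binding protein and stored in the extracellular matrix. Once released, it binds the type II receptor, which phosphorylates the type I receptor, and this in turn phosphorylates SMAD2 and SMAD3. These enter the nucleus with SMAD4 and activate target genes, among them the inhibitor SMAD7, which closes a feedback loop. In stratified epithelium such as that of the oesophagus the pathway is known for restraining the growth of basal cells and for inducing matrix and mesenchymal genes.

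Upstream sequences are shown for the 4 genes that changed under every setting tried (Inhba and Ltbp1, lower in E79Q, and Smad3 and Tgfb1, higher), so that pairs of genes that moved together can be read side by side. RefSeq (GRCm38.p6) promoter windows were matched by symbol for 8 of the 10 genes. Each run below is the 250 bases before an annotated start, 5′ to 3′ on the gene's strand. The submitters' processing notes name the build mm9, so these coordinates belong to the RefSeq table and not to the expression values. Capitals mark matches on either strand to TGANTCA (AP-1), TGACNNNGC (the core of the antioxidant response element bound by NRF2), CAGAC (a short SMAD-binding sequence) or TGACGTCA (the cAMP response element).
Inhba, chr13:16011601-16011850 (plus strand): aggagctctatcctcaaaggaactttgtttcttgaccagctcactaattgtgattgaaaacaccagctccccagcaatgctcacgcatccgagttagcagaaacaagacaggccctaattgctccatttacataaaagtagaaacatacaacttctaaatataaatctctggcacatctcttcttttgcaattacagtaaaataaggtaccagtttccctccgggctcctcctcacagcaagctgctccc
Ltbp1, upstream start, chr17:75005279-75005528 (plus strand): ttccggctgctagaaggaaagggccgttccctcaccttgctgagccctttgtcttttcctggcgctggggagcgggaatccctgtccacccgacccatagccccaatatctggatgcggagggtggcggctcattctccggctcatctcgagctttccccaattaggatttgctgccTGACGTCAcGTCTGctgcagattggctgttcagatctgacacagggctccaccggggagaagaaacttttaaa
Ltbp1, downstream start, chr17:75178531-75178780 (plus strand): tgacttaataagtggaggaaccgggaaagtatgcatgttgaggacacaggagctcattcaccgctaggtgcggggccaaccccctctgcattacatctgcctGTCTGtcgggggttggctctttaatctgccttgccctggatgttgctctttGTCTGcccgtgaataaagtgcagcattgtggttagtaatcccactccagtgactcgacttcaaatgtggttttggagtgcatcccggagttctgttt
Smad3, chr9:63757995-63758244 (minus strand): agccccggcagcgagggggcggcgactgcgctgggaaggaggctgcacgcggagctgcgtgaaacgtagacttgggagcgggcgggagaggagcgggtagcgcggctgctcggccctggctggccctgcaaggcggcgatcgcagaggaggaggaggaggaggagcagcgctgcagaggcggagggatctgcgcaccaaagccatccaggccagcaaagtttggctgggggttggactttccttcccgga
Tgfb1, chr7:25686752-25687001 (plus strand): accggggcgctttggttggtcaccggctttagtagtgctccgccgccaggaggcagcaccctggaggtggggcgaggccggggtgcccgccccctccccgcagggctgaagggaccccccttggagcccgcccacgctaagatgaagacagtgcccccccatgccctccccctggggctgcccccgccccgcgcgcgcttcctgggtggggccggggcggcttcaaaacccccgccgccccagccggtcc
The windows of Inhba, Smad3 and Tgfb1 held none of the 4 motifs. The upstream window of Ltbp1 held 1 match to TGACGTCA and 1 to CAGAC, separated by a single base, and its downstream window held 2 matches to CAGAC. Among all 32851 windows of this length, 1.55% held TGACGTCA, 42.2% held CAGAC, 10.2% held TGACNNNGC and 6.75% held TGANTCA. The antioxidant response core was matched once each in Tgfbr2 and in the upstream window of Tgfbr1, in which the calls described below were unstable or absent. No match of a motif overlapped one of another motif in the windows of these genes. A match is a description of these letters and not a bound site, and the search covers only these windows.

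Values are variance-stabilised and on a log2-like scale, with a floor of 6.98 at which a gene has no reads, and this scale compresses differences of genes near the floor. Differences are E79Q minus WT ± the moderated standard error over 2 replicate pairs. A gene was called when its limma p-value, adjusted by the Benjamini-Hochberg method over all 10857 genes high enough to test, was under 0.05. Normalised counts are approximate, from inverting the stabilisation. The libraries summed to between 13479863 and 13928658 normalised counts, which are already scaled to a common size and so do not give the sequencing depth. As a check of the genotype, the NRF2 target Nqo1 lay at 8.64 and 8.65 in WT and at 10.88 and 10.87 in E79Q. The cells carried keratinocyte markers, with Krt5 between 15.79 and 15.85 in all 4 libraries, and 6 of 10 such markers were called, 3 higher and 3 lower. Among all tested genes 40.4% were called, 21.5% higher and 18.9% lower. Dsg3, desmoglein 3, and Itga6, a basal cell integrin, rose by 0.74 ± 0.05 and 0.73 ± 0.06, and the differentiation keratin Krt13 by 0.49 ± 0.07, while the basal keratin Krt15 fell by 0.58 ± 0.07. Of 5 leukocyte markers, Ptprc, Adgre1 and Cd3e were at 0 normalised counts in each library and Csf1r did not exceed 8.57. Cd68, a lysosomal protein of macrophages, was the 1 tested and rose by 0.67 ± 0.07, from 184 and 164 normalised counts in WT to 370 and 405 in E79Q. The allele's own gene Nfe2l2 had 2412 and 2229 normalised counts in WT and 2061 and 2232 in E79Q and was not called.

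Of the 10 genes, Inhba and Ltbp1 fell to less than 50% of their wild-type normalised count in E79Q cells, while Smad3 and Tgfb1 rose by modest amounts. Tgfbr2 was called lower by a margin that did not survive most other settings. Tgfb2, Smad7, Tgfbi and Tgfbr1 were not called, and Tgfb3 was too low to test. The 9 tested genes passed the filter on low values in all 4 libraries. Thus 5 of 9 tested genes were called (55.6%), 2 higher and 3 lower, against 40.4% of all tested genes, 21.5% higher and 18.9% lower. In the fit without the replicate block 5 of the 9 were called too, 3 higher and 2 lower, against 55.3% of all tested genes. The median difference of the 9 was 0.14, beside 0.01 over all tested genes. The 2 groups of libraries did not overlap in 8 of the 9, and in 79.2% of all tested genes. The deposited values had been centred by replicate number, which removes any shift shared by a replicate pair. In such values, groups without overlap are the same observation as 2 pairs of equal sign. Fewer cells of a type and less RNA per cell cannot be told apart in bulk RNA of this kind.

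**Figure D1:**
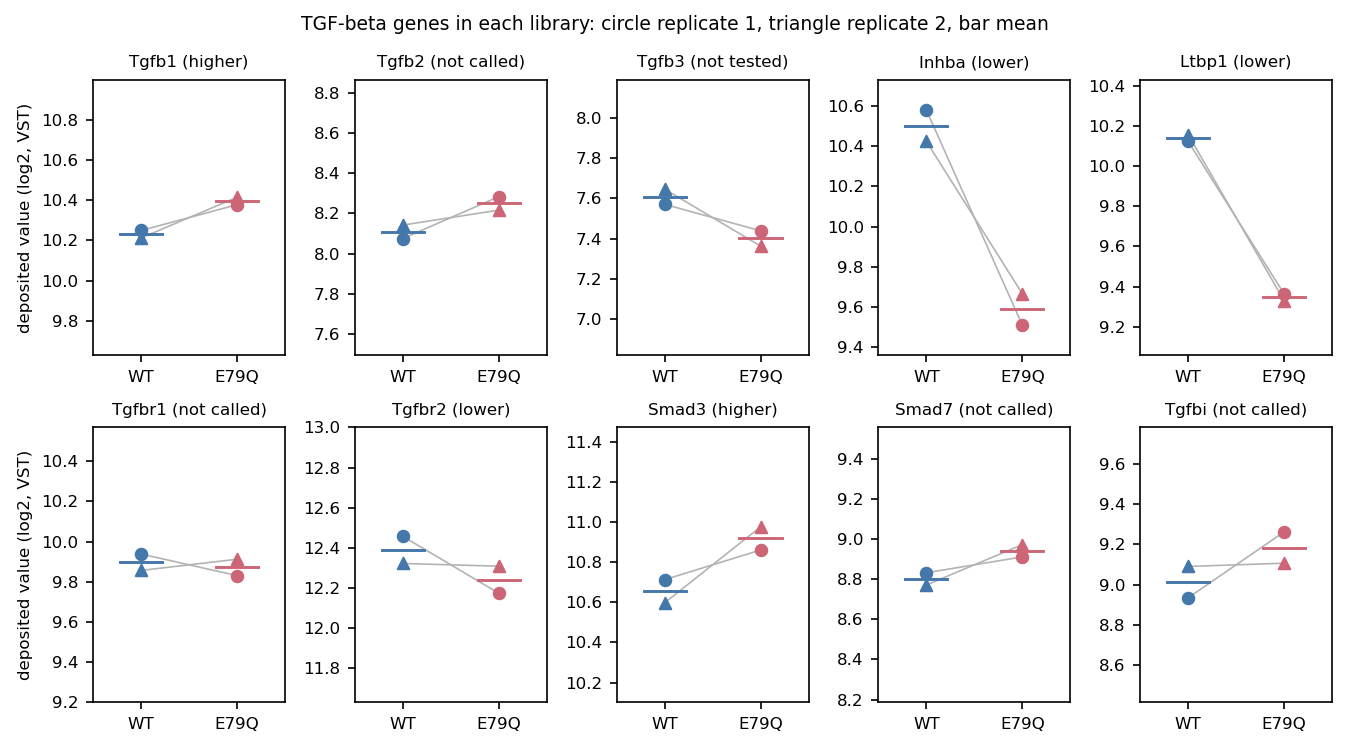
Deposited log2-like value (vertical axis, the same span in every panel) of each of the 10 genes in the 2 WT and 2 E79Q libraries; circles are replicate 1, triangles replicate 2, grey lines join a pair, bars are group means, and the panel title gives the call. Inhba and Ltbp1 drop by 0.92 and 0.79, whereas every other gene moves by 0.26 or less.

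Among the ligands, Inhba showed the largest difference of all 10 genes. It encodes the beta A subunit of activin A, a ligand that signals through its own type I and type II receptors to the same SMAD2 and SMAD3. Its value was 10.58 and 10.42 in the WT libraries and 9.51 and 9.67 in the E79Q libraries. Both E79Q libraries lay well below both WT libraries. The difference was -0.92 ± 0.07 (limma adjusted p = 4.11e-08), and only 0.976% of all tested genes differed by as much in either direction. In normalised counts this was 1290 and 1134 against 498 and 580, a 2.25-fold lower level. Pair 1 fell by 1.07 and pair 2 by 0.76, so the size varied between pairs more than for Ltbp1.

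Other genes of the activin system did not move as a block. Inhbb, the beta B subunit, lay at 9.37 and 9.39 in WT and at 9.05 and 9.03 in E79Q, and fell by 0.34 ± 0.06 (limma adjusted p = 0.000507). Inha, the alpha subunit that turns activins into inhibins, differed by -0.01 ± 0.07 and was not called. The secreted activin antagonist Fst, follistatin, differed by 0.05 ± 0.09 and was not called, with overlapping groups (9.77 and 9.48 in WT, 9.53 and 9.82 in E79Q). Its relative Fstl3, which also binds activin, rose by 0.19 ± 0.06 (limma adjusted p = 0.0258). Inha and these antagonists were named after their values were seen.

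Tgfb1, the most widely expressed TGF-beta ligand, was slightly higher in E79Q cells. It lay at 10.25 and 10.21 in WT and at 10.38 and 10.42 in E79Q, without overlap. The difference of 0.17 ± 0.05 (limma adjusted p = 0.0232) corresponds to 1.15 times the WT normalised count, and it was positive in pair 1 (0.13) and pair 2 (0.20). It is thus a small change whose call held in all 13 alternatives, which are not independent, with adjusted p-values up to 0.0481.

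Tgfb2 and Tgfb3 encode the other TGF-beta isoforms and lay near the bottom of the scale. Tgfb2 was at 8.07 and 8.14 in WT and at 8.28 and 8.22 in E79Q. Its difference of 0.14 ± 0.07 was not called (limma adjusted p = 0.139), with a 95% interval from -0.01 to 0.30. It was called without replicate 2 of either genotype, at 0.18 (adjusted p = 0.0336 each). Tgfb3 lay at 7.57 and 7.65 in WT and at 7.44 and 7.36 in E79Q, which corresponds to 21.6 and 27.5 against 13.0 and 9.02 normalised counts. It did not pass the filter on low values. With no filter its difference was -0.21 ± 0.08 (limma adjusted p = 0.0881).

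Ltbp1 encodes a latent TGF-beta binding protein, which tethers the latent ligand in the matrix. It lay at 10.12 and 10.16 in WT and at 9.36 and 9.33 in E79Q. After the centring by replicate number, libraries of a genotype lay far closer to each other than to those of the other genotype. The difference was -0.79 ± 0.06 (limma adjusted p = 3.68e-08), and 1.46% of all tested genes differed by as much. Normalised counts were 878 and 904 in WT against 431 and 416 in E79Q, a 2.10-fold lower level, and pairs 1 and 2 fell by 0.76 and 0.83.

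Its paralogues followed different courses. Ltbp4 rose by 0.65 ± 0.06, from 9.33 and 9.44 in WT to 10.09 and 9.98 in E79Q (limma adjusted p = 9.40e-07), or 1.85 times the WT normalised count. Ltbp3, chosen after its value was seen, differed by 0.09 ± 0.06 and was not called, and Ltbp2 was too low to test. In the list of genes that store or activate latent TGF-beta, 8 of 12 tested genes were lower, 1 was higher and 3 were not called, with a median of -0.35, beside 18.9% lower and 21.5% higher among all tested genes. The filter asks for 2 libraries, and Mmp2 and Fbn1 passed it through WT alone. They thus had to lie lower in E79Q, called or not. Without these 2 genes, 6 of 10 were lower and the median was -0.28. Mmp2, a gelatinase that can release the ligand, fell by 0.79 ± 0.08 and Thbs1, the activator thrombospondin 1, by 0.78 ± 0.06. Fbn1, the fibrillin to which latent complexes attach, fell by 0.68 ± 0.07. Ltbp4 was the gene called higher. Itgb6, a subunit of the epithelial integrin that activates latent TGF-beta, fell by 0.35 ± 0.05, while its partner Itgav differed by 0.04 ± 0.05 and was not called. Both were named after their values were seen.

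Some markers of matrix-producing and contractile cells fell beside Inhba and Ltbp1, and others did not. Of 9 fibroblast markers only Col1a1, which is also a TGF-beta target, was tested, and it had 305 and 333 normalised counts in WT and 44.9 and 36.7 in E79Q. It passed the filter through WT alone and made up most of the list's sum, which was 417 and 422 in WT and 120 and 129 in E79Q. The remaining 8 were too low to test. Col1a2 had 66.0 and 52.5 against 31.3 and 41.6, and Col3a1 had 21.4 and 20.2 against 11.8 and 12.8. Pdgfra and Pdgfrb overlapped between genotypes and did not exceed 13.9, and Lum and Dpt were at 0 in all 4 libraries. Dcn and Thy1 went the other way, from at most 0.989 in WT to 10.8 and 10.7 and to 6.73 and 4.26 in E79Q. The 5 smooth muscle markers summed to 978 and 1021 in WT and to 310 and 290 in E79Q. Nearly all of it was Acta2, smooth muscle actin, and Tagln, transgelin. Both genes, like Col1a2 and Col3a1, are also on the list of TGF-beta-induced genes below. Acta2 fell by 1.23 ± 0.06 and Tagln, which passed the filter through WT alone, by 0.61 ± 0.07. Cnn1, at a low level, fell from 9.20 and 19.6 to 7.65 and 1.92. Myh11 and Des, also at low levels, went the other way. Myh11 rose from 1.34 and 0.743 to 4.28 and 5.59 and Des from 0.132 and 0.448 to 4.04 and 2.90. The 10 keratinocyte markers, called in both directions as given above, summed to between 134966 and 141192, most of it Krt5 and Krt14. The part of these markers in the differences of Inhba and Ltbp1 was not tested.

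The receptors changed little. Tgfbr2, the type II receptor that binds the ligand, lay at 12.46 and 12.32 in WT and at 12.17 and 12.31 in E79Q. The groups were separate by only 0.01, and nearly all of the difference came from pair 1 (-0.28, against -0.01 in pair 2). The difference of -0.15 ± 0.06 (limma adjusted p = 0.0456) was no longer called without the replicate block (0.185), without a filter (0.121), with a stricter filter (0.0543), with robust empirical Bayes (0.0710) or without a variance trend (0.116). It was also lost without replicate 1 of WT (-0.08, adjusted p = 0.182) or of E79Q (-0.08, adjusted p = 0.177). Of the 13 alternatives, 6 kept the call.

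Tgfbr1, the type I receptor kinase, overlapped between genotypes, with 9.94 and 9.86 in WT and 9.83 and 9.91 in E79Q. The difference was -0.03 ± 0.06 (limma adjusted p = 0.764; 95% interval from -0.15 to 0.10), and its sign differed between the pairs (-0.11 and 0.06). Among the other receptors and co-receptors of the superfamily, whose ligands include activins and bone morphogenetic proteins (BMPs), limma called 0 of 9 tested genes. The share called among all tested genes was 40.4%. At an unadjusted p under 0.05 there was 1 of the 9, Bmpr2, named for that after its value was seen, at 0.12 ± 0.05 (adjusted p = 0.0533). Without the replicate block 3 of the 9 were called, 2 higher and 1 lower, against 55.3% of all tested genes.

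**Figure D2:**
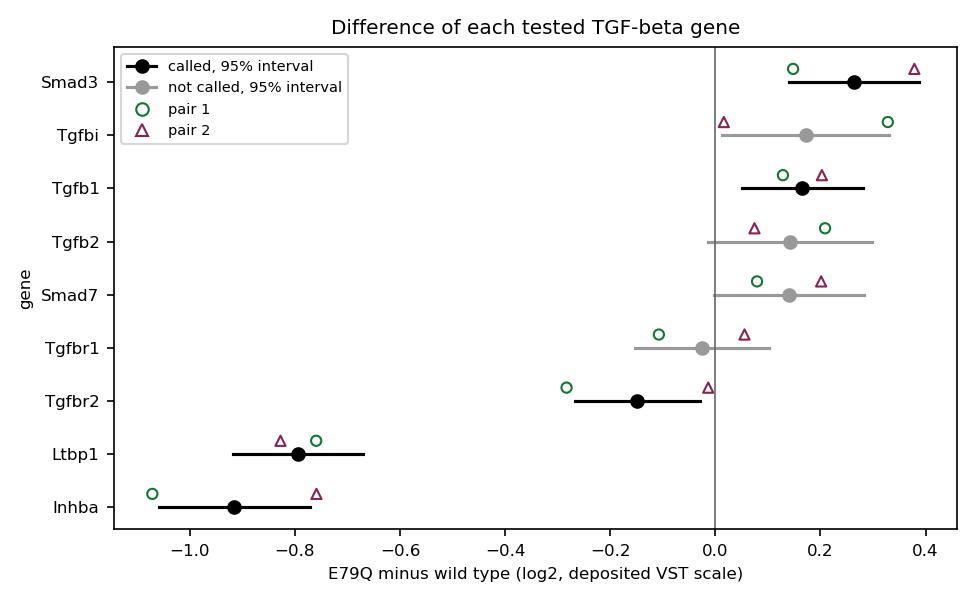
Difference E79Q minus WT (horizontal axis, log2 scale as deposited) of the 9 tested genes with its unadjusted 95% interval; black genes were called, grey were not, and open symbols above each bar are the 2 replicate pairs. Ltbp1 and Inhba lie apart from the rest, and pair 2 of Tgfbr2 and of Tgfbi sits near 0.

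Of the SMADs, Smad3 rose and Smad7 was not called. Smad3 carries the signal of TGF-beta and activin to DNA. It lay at 10.71 and 10.60 in WT and at 10.86 and 10.98 in E79Q, without overlap. The difference was 0.26 ± 0.06 (limma adjusted p = 0.00204), or 1.23 times the WT normalised count, with 0.15 in pair 1 and 0.38 in pair 2. The call held in all 13 alternatives, at adjusted p-values up to 0.0437. Smad7, the inhibitory SMAD that targets the receptor for degradation, lay at 8.83 and 8.77 in WT and at 8.91 and 8.97 in E79Q. Its difference of 0.14 ± 0.07 was not called (limma adjusted p = 0.11; 95% interval from -0.0023 to 0.28), although the groups did not overlap. It was called without the replicate block (adjusted p = 0.0487) and without replicate 1 of WT (0.0228) or of E79Q (0.0230), at 0.17 in both.

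Of 8 tested genes in the list of other SMADs and their partners, 4 were higher, 1 was lower and 3 were not called, with a median of 0.12, beside 21.5% higher and 18.9% lower among all tested genes. Zfyve9, which encodes the anchor that presents SMAD2 and SMAD3 to the receptor, rose by 0.28 ± 0.05 and Ep300, a co-activator of SMADs, by 0.19 ± 0.05. Its relative Crebbp rose by 0.16 ± 0.05, a call lost without a filter, after quantile normalization and without a variance trend. Trim33, a SMAD4 regulator, was the remaining gene called higher, a call kept in 9 of 13 alternatives. Smad1, a SMAD of the BMP branch, fell by 0.17 ± 0.06. Smad2 and Smad4 differed by 0.10 each, with SEs of 0.05, and were not called. Trim33, Smad2 and Smad4 were named after their values were seen.

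Tgfbi, which encodes a matrix protein first found as a gene induced by TGF-beta, lay at 8.93 and 9.09 in WT and at 9.26 and 9.11 in E79Q. The groups were separate by only 0.02, since the difference was 0.33 in pair 1 and 0.02 in pair 2. At 0.17 ± 0.07 it was not called (limma adjusted p = 0.0781). Without replicate 2 of WT or of E79Q it was called at 0.25, with adjusted p-values of 0.00520 and 0.00489.

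Of 41 tested genes listed as induced by TGF-beta, 22 were lower in E79Q cells, 5 higher and 14 not called, with a median of -0.34. Among all tested genes, 18.9% were lower and 21.5% higher. Whether the listed genes respond to TGF-beta in these cells was not tested. Thbs1 and Itgb6, both called lower, were counted here and also among the latency genes. Col5a1, Col1a1, Tagln and Loxl2, a lysyl oxidase relative named after its value was seen, passed the filter through WT alone. These genes thus had to lie lower in E79Q, called or not. Without these 4, 18 of 37 were lower and 5 higher, and the median was -0.12. On the deposited scale the largest falls were those of Col5a1, a fibrillar collagen chain, Vim, vimentin, Cdh2, N-cadherin, and Fn1, fibronectin, at -1.92 ± 0.07, -1.62 ± 0.07, -1.30 ± 0.06 and -1.30 ± 0.05. By normalised count the order was another, with Col5a1 first and then Loxl2 8.87-fold, Col1a1 7.82-fold, Vim 7.57-fold, Cdh2 4.28-fold and Fn1 2.51-fold lower. Acta2, Tagln and Col1a1, which make up most of the fibroblast and smooth muscle marker sums given above, are also on this list. Those sums are therefore no separate observation, and the part of such cells in this list was not tested. The 5 genes called higher were Tgif1, Wnt5a, Junb, Snai2 and Bhlhe40, at 0.69, 0.55, 0.38, 0.27 and 0.14, and all but Tgif1 were named after their values were seen. Of these, Tgif1, Junb and Bhlhe40 lost their calls in the fit that omits the block, with adjusted p-values of 0.0542, 0.0575 and 0.0504. Bhlhe40 kept its call in 6 of 13 alternatives.

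Among the early targets, Ctgf, connective tissue growth factor, differed by -0.02 ± 0.06 and Skil, a SMAD co-repressor, by -0.04 ± 0.05, and neither was called. Both were picked after their values were seen. In the list of inhibitors, 4 of 18 tested genes were higher, 5 lower and 9 not called, with a median of 0.03. These shares were near the 21.5% higher and 18.9% lower of all tested genes. Pmepa1, a TGF-beta-induced inhibitor that sequesters SMADs, fell by 0.78 ± 0.06, from 10.10 and 10.09 in WT to 9.31 and 9.32 in E79Q, and its relative Ldlrad4 by 0.31 ± 0.07. Fstl1, a secreted relative of follistatin that passed the filter through WT alone, fell by 1.27 ± 0.07. Tgif1, a SMAD co-repressor, rose by 0.69 ± 0.10, a call that was also lost with robust empirical Bayes (adjusted p = 0.230). Tgif1, Pmepa1 and Skil are among the genes counted both as inhibitors and as TGF-beta-induced genes.

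**Figure D3:**
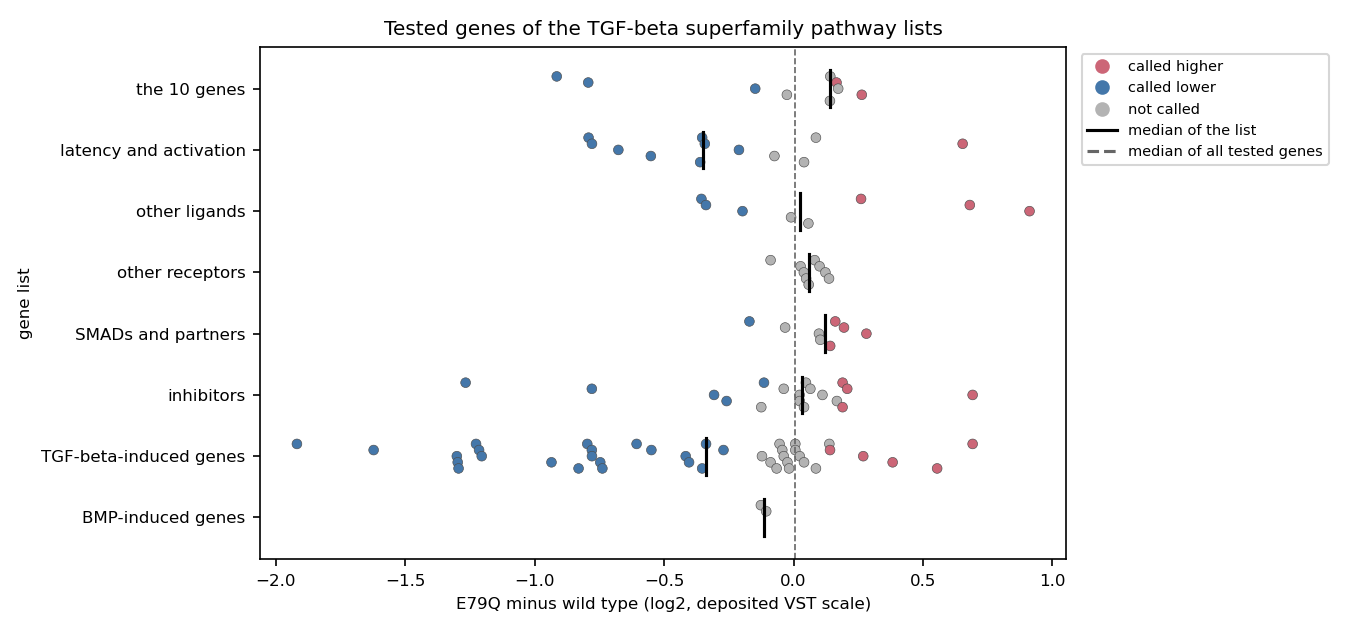
Difference E79Q minus WT (horizontal axis, log2 scale as deposited) of every tested gene in the 10-gene set and in 7 pathway lists that leave these 10 out; red genes were called higher, blue lower and grey not called, the black bar is the list's median and the dashed line the median of all tested genes. The lists of latency genes and of TGF-beta-induced genes have medians of -0.35 and -0.34, and no gene of the other receptors is coloured. Without genes that passed the filter through WT alone, these medians were -0.28 and -0.12. Some genes are on several lists.

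The remaining ligands of the superfamily went both ways. Of 25 listed genes, 8 were high enough to test, with 3 higher, 3 lower and 2 not called. Among all tested genes, 21.5% were higher and 18.9% lower. Bmp6 rose by 0.91 ± 0.07, from 8.23 and 8.16 in WT to 9.07 and 9.14 in E79Q, 3.45 times the WT normalised count. Gdf15, a stress-induced hormone, rose by 0.68 ± 0.06. Bmp1, a protease that processes procollagen and is no BMP ligand despite its name, fell by 0.36 ± 0.05. It is 1 of the 3 counted as lower. Of the genes induced by BMPs only Id2 and Id3 of 13 were high enough to test. limma called 0 of them, 0 also at an unadjusted p under 0.05, at -0.13 ± 0.07 and -0.11 ± 0.08. Without the replicate block 1 of them was called, Id2 (adjusted p = 0.0204), and 55.3% of all tested genes were. In all 7 lists together, genes on several lists were counted once. There, 52 of 90 tested genes were called (57.8%), 16 higher and 36 lower, against the 40.4% of all tested genes. Of the 36, 7 passed the filter through WT alone, which fixed the direction of their difference but not the call. Without genes that passed through 1 genotype alone, 16 of 82 were higher and 29 lower (19.5% and 35.4%). Over all tested genes treated in the same way, these shares were 21.3% and 18.2%. The lists were written with earlier results of these data known.

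Levels can be compared between genes only per length, here as normalised counts per kilobase of annotated exon. In WT cells Tgfbr2 was the highest of the 10, at 656 and 595, followed by Tgfb1 at 450 and 436, Smad3 at 282 and 257 and Inhba at 202 and 177. Ltbp1 (127 and 131) stood above Tgfbr1 (116 and 108), whose range overlapped that of Tgfbi (99.3 and 119), and then came Smad7 (54.5 and 50.5), Tgfb2 (14.7 and 16.7) and Tgfb3 (6.38 and 8.14). In E79Q cells the order of the upper 3 was the same, but Inhba, at 78.0 and 90.7, lay below Tgfbi and Tgfbr1. Ltbp1, at 62.4 and 60.3, overlapped Smad7, at 59.9 and 64.4.

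**Figure D4:**
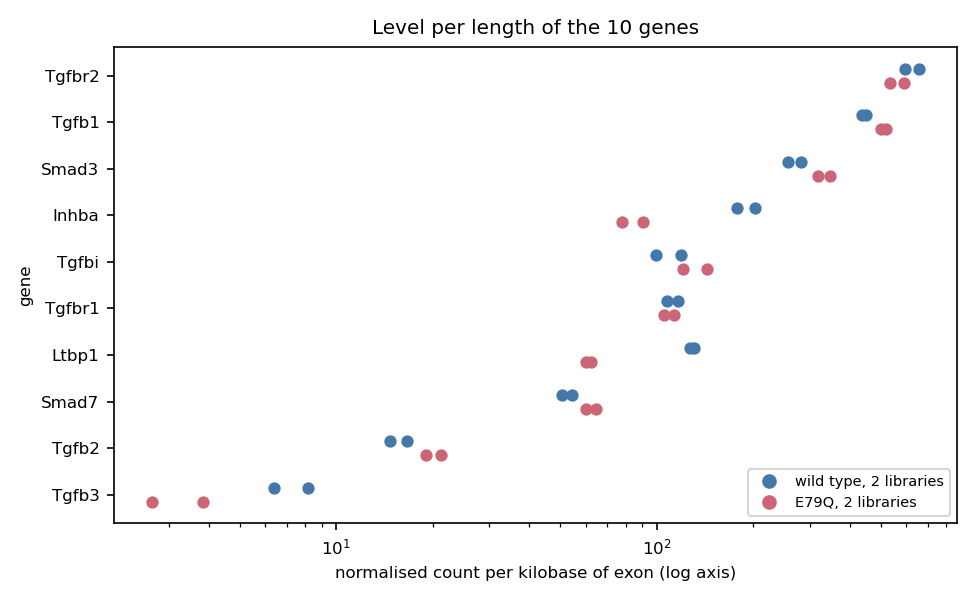
Normalised count per kilobase of exon (horizontal log axis) of the 10 genes in the 2 WT (blue) and 2 E79Q (red) libraries, ordered by the mean of all 4. Tgfbr2, Tgfb1 and Smad3 lead in both genotypes, and the Inhba and Ltbp1 points of E79Q lie left of those of WT.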

How the data were processed

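The authors deposited 1 variance-stabilised log2 value per gene and library, per the file headers and file name. Per the submitters' processing notes, the build was mm9 and the tools were DESeq2, DESeq 1.22.2, Salmon 0.11.3 and STAR 2.5.2b, with no role stated. The labels do not state the strand setting or the annotation. The series' design text names a human cell line, against its title and all labels, which were followed. Groups and replicate numbers came from the sample titles. The 10 genes and all lists were chosen with earlier results of these data known.

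In every gene the WT and E79Q values of replicate 1 sum to the same as those of replicate 2, to within 1.31e-13, so the values had been centred by replicate number. The numbers therefore pair the libraries in these values, and the replicate number was kept as a block, which leaves 1 residual degree of freedom per gene instead of 2. Most precision is borrowed across genes (prior degrees of freedom 14.6). Genes at least 1 above the lowest value (6.90) in at least 2 libraries were tested with limma 3.58.1 in R 4.3.3 (lmFit, eBayes with a mean-variance trend, two-sided, Benjamini-Hochberg). The steps were tested on simulated data. Normalised counts were computed by inverting the parametric variance stabilisation from the floor (6.98), set to 0 below it, and divided by GENCODE vM21 exon length where levels are compared. Shares were compared with an exact permutation test (scipy 1.17.1). Sequencing depth cannot be read from these values, so no counting interval is given. Named list genes are the up to 4 called genes with the largest difference per list and, where there are 2 or fewer, those called against the list's direction; others are marked as named after their values were seen, apart from Krt5 and other cell markers given by level and the tested Id genes. Of the list names, Ccn2 was matched through its older symbol Ctgf.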

Additional observations from a re-analysis of the deposited data

How the results depend on the processing

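The planned fit used the replicate block because the deposited values are centred by replicate number. No replicate block gave 6004 called genes against 4388, and 3 of the 10 TGF-beta genes higher and 2 lower, against 2 and 3. Leaving out 1 library, fitted without the block, gave 2617 to 2924 genes called higher and 2391 to 2544 lower, 3 to 4 TGF-beta genes higher and 2 to 3 lower. The count of 4 higher arose without replicate 2 of either genotype. Because values of a pair mirror each other, leaving out either library of a pair gives the same difference. The lone library is assumed to vary like the others. The 13 alternatives are therefore not independent, and fits without the block count a degree of freedom that the centring had used. Among all called genes, 53.2% were higher, and 47.0% after median centring. Over the 116 alternative values of the 9 tested genes, 100 kept direction and side of the threshold, 7 lost a call (all Tgfbr2), 7 gained one (Tgfb2, Smad7 and Tgfbi) and 2 reversed: Tgfbr1 ranged from -0.0667 to 0.0148 when 1 library was left out, and was above 0 without replicate 1 of WT or of E79Q. Inhba, Ltbp1, Smad3 and Tgfb1 kept their calls in all 13. For 49 other named genes, 585 of 629 values were unchanged in this sense, 17 lost a call, 18 gained one and 9 reversed. The reversed values were of genes not called. When 1 library was left out, Ctgf ranged from -0.0573 to 0.0223, Fst from -0.0980 to 0.193, Inha from -0.0333 to 0.0137 and Itgav from -0.00955 to 0.0901, and Inha was 0.0343 after quantile normalization. Differences of low genes were larger on other log scales, with Bmp6 up to 1.78 and Col5a1 down to -4.52. Under the stricter filter Tgfb2 gave no value. The causes were not tested. Low expression limits Tgfb3 and 53 of 143 pathway genes, which were not tested.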

Other observations

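Tgfb1 supplied nearly all of the TGF-beta ligand RNA in both genotypes. Per kilobase of exon, its share of the summed normalised counts of Tgfb1, Tgfb2 and Tgfb3 was 95.5% and 94.6% in WT and 95.2% and 96.0% in E79Q. The difference of 0.540 percentage points was smaller than the spread between libraries (two-sided exact permutation p = 0.667), and leaving out 1 library moved it between 0.0853 (without WT replicate 2) and 0.994 (without WT replicate 1). Without division by length, an alternative added after the data were seen, it was 0.474. The share of Tgfb3 was 1.35% and 1.77% in WT and 0.728% and 0.495% in E79Q, without overlap (two-sided exact permutation p = 0.333, the smallest that 2 against 2 libraries can give).

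Of the 53 pathway genes left out by the filter, 45 varied between libraries, and with no filter limma called 8 of them, 6 lower and 2 higher, against 23.5% of all 16324 genes then tested. They are named after their values were seen. Zeb1, a repressor of epithelial genes, had 41.4 and 42.8 normalised counts in WT and 3.01 and 2.65 in E79Q, a difference of -0.61 ± 0.07 on the deposited scale (adjusted p = 0.000533). Postn, periostin, had 42.7 and 45.7 against 6.17 and 5.15. Fbn2, Snai1, Adam19 and Atoh8 were the others called lower. The genes called higher were Dcn and Bgn, small matrix proteoglycans that bind TGF-beta, and Bgn had 10.4 and 5.09 in WT against 32.0 and 44.3 in E79Q. At these levels the counts are approximate and the scale compresses differences.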
